A study of Mus musculus with 12 samples.

Results

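The genes described here are 34 genes of the cell cycle, chosen by name from a deposited table of 46882 gene names. They comprise 20 mitotic genes, 11 genes of DNA replication and nucleotide supply, and 3 G1 cyclin genes. All 34 were in the table and all had enough counts to be tested among 16910 genes. The tissue was whole kidney from C57BL/6 mice, 6 to 8 weeks of age. One group of 6 libraries is Wild-type (WT), and the other 6 libraries have the genotype A1cf -/- (A1cf KO). A1cf encodes an RNA-binding protein known as the partner of APOBEC1 in editing of apolipoprotein B mRNA. The labels name no treatment and no other allele. The design of the A1cf allele is not given in the sources used here. At issue was how the kidney transcriptome differs without A1cf.

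The libraries held 26671705 to 52899139 counts. The level of A1cf, as counts scaled to library size by TMM (CPM), was 54.5 ± 7.39 in WT, against 4.11 ± 1.08 in A1cf KO (SD, n = 6 each). Every A1cf KO library was below every WT library. Each library carries a number, read here as that of an animal, though the labels do not say so. The numbers fall into 2 runs, 573 to 602 with 3 WT and 5 A1cf KO libraries, and 776 to 780 with 3 WT and 1 A1cf KO libraries. The labels do not call these runs batches, and they are uneven between genotypes, so values with a term for the run, or within the first run, are given for the gene groups and for named genes where they differ most. The 10 proximal tubule markers, among them Lrp2 and Slc34a1, summed to between 39290 and 58230 CPM in each library.

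A dividing cell copies its DNA in S phase and separates the copies in mitosis. The licensing complex of the MCM proteins, the sliding clamp PCNA and the enzymes that make deoxynucleotides serve S phase. Cyclin-dependent kinase 1 with its A and B cyclins, the spindle motors and the checkpoint proteins serve mitosis, and the anaphase-promoting complex ends it. Most cells of the adult kidney rest outside the cycle, and transcripts of mitotic genes are thought to come mainly from the few cells that divide. In whole tissue, a difference in the number of dividing cells and a difference in RNA per dividing cell cannot be told apart.

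Transcription of the late genes is known to depend on CHR elements with CCAAT boxes, where the DREAM and MMB-FOXM1 complexes act, and that of replication genes on E2F sites. Promoter sequences from RefSeq (GRCm38.p6, the assembly known as mm10) were matched by symbol for 28 of the 34 genes, and each window runs from 250 bases before to 50 bases after the start. The CHR words searched were TTTGAA and TTCGAA, the CCAAT word was CCAAT, and the E2F words were TTGGCGC together with the words TTCCCGC and then TTGCCGC and finally TTCGCGC, all on both strands. An E2F word can share letters with a CCAAT word on the other strand. Of 17 mitotic genes, 13 (76.5%) held a CHR word and 15 (88.2%) a CCAAT word, while 3 (17.6%) held an E2F word. Of 10 replication genes, 2 (20%) held a CHR word, 8 (80%) a CCAAT word and 6 (60%) an E2F word. Among all 32851 promoters of that length the shares were 19.2% for CHR, 37.4% for CCAAT and 9.57% for E2F. These shares are per window, while a gene above counted if any of its windows held the word. Prc1 and Mcm7 had more than a single window.

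Of the sequences shown here, 4 are of mitotic genes described below and 2 of replication genes, to set the CHR and E2F words side by side. Each is the 150 bases before the start, written 5′ to 3′ on the gene's strand, with matches to the words above or their reverse complements in capitals. Those of Ccnb2 (chr9:70421555-70421704), Cdc20 (chr4:118437344-118437493), Cdk1 (chr10:69352913-69353062) and Mcm6 (chr1:128359706-128359855) lie on the minus strand. Those of Kif11 (chr19:37376232-37376381) and Rrm1 (chr7:102441545-102441694) lie on the plus strand.
Ccnb2: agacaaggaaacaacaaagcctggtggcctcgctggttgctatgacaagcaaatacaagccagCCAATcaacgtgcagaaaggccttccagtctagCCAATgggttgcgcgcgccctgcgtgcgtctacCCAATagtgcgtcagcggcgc
Cdc20: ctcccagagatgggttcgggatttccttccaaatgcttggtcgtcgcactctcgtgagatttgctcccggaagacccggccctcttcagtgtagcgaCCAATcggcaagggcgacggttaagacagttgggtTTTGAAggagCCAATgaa
Cdk1: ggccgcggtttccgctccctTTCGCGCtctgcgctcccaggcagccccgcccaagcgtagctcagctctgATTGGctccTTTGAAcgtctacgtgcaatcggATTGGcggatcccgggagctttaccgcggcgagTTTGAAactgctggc
Kif11: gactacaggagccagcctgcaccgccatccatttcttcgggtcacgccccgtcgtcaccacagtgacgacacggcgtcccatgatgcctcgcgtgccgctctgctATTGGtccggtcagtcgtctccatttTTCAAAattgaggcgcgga
Mcm6: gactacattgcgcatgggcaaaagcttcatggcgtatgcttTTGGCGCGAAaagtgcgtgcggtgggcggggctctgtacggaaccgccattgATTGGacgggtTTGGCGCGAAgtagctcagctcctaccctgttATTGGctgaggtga
Rrm1: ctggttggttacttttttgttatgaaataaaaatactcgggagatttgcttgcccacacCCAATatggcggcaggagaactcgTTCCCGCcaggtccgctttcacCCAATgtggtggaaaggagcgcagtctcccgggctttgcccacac
Ccnb2 carried 3 evenly spaced CCAAT words before its start, and its nearest TTTGAA lay just beyond the printed stretch, from 5 to 10 bases after the start. Kif11 held a CHR word between its CCAAT word and the start, Cdc20 held one between 2 CCAAT words, and Cdk1 held 2, one after each of the printed CCAAT words. In the printed stretch Mcm6 held E2F words at 2 places and Rrm1 at 1, and neither held a CHR word. A match is a description of letters and was not tested for binding.

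Transcripts of the 20 mitotic genes were scarce in these kidneys, and those of the 11 replication genes were less so. Per length (CPM per kilobase of exon, mean of 12 libraries), the mitotic genes ran from 0.0546 for Bub1 to 1.10 for Nusap1, with a median of 0.285. The replication genes ran from 1.00 for Mcm3 to 13.5 for Pcna, with a median of 2.36. Ccnd1, the D-type cyclin that drives the start of G1, was the highest of the 34 at 24.7, and Ccne1 and Ccne2, the E-type cyclins of S phase entry, were at 0.187 and 0.379. The mitotic genes rested on 594 to 2099 counts per library in sum, against 3622 to 8268 for the replication genes. Further mitotic genes described below were not all as scarce. Spc25 was at 9.56 CPM per kilobase, and the list of 40 summed to 162 to 195 CPM in WT, against 170 to 189 CPM in A1cf KO.

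No mitotic gene passed the threshold over all genes, and all 20 had a positive fold change. The median log2 fold change (A1cf KO relative to WT) of the 20 was 0.51, beside -0.003 over all 16910 genes tested, of which 49.2% were positive. Estimates ran from 0.01 for Nusap1 to 1.09 for Ccnb2. At an unadjusted p under 0.05 in the edgeR quasi-likelihood test there were 3 of the 20, Ccnb2, Tpx2 and Kif11, all higher in A1cf KO, where 5.07% of all genes were past that mark and higher and 5.28% were past it and lower. At an adjusted p under 0.05 there were 0 of 34 by edgeR (0.0473% of all genes, and 0.0118% when only those higher in A1cf KO are counted) and 1 by DESeq2, Ccnb2 (1.11% of the genes with a value). The genotypes overlapped for all 34 genes, and 0.84% of all genes had groups that did not overlap. The genes were measured in the same libraries and are not independent of each other.

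**Figure D1:**
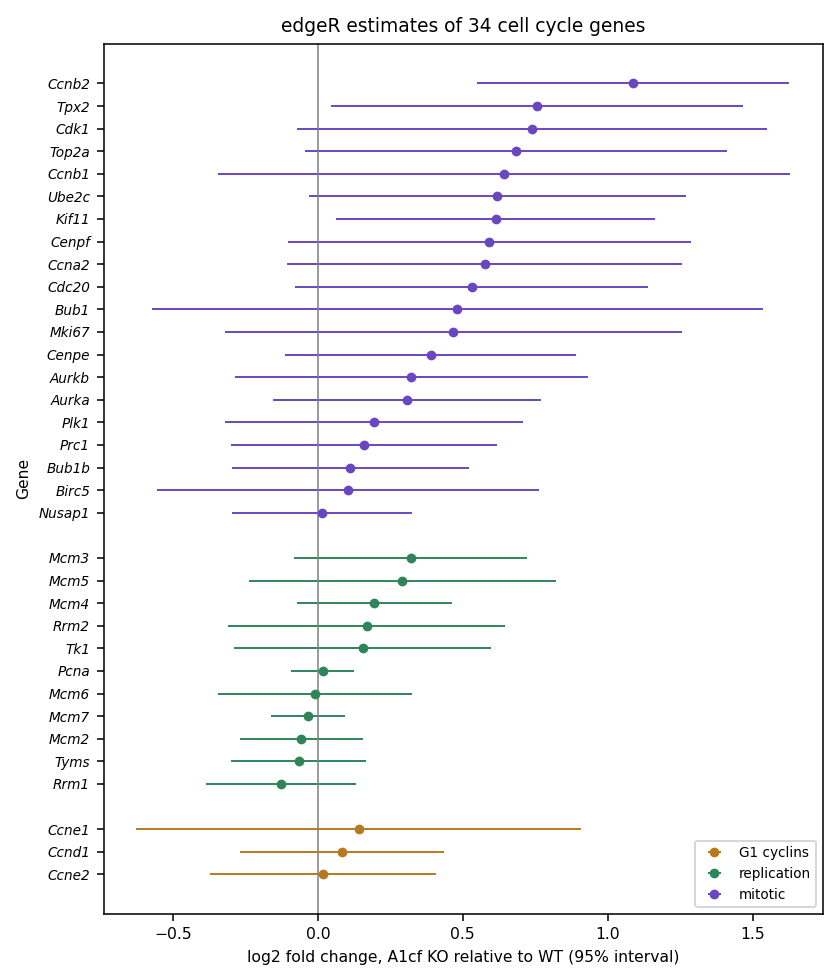
Change with genotype (x axis, log2 of A1cf KO over WT) of each of the 34 genes (y axis) from edgeR, with its 95% interval, for mitotic (purple), replication (green) and G1 cyclin genes (ochre). Ccnb2 has the highest estimate (1.09), the 20 mitotic estimates lie at or above 0.01, and the replication estimates lie on either side of 0.

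Ccnb2 encodes cyclin B2, an activator of cyclin-dependent kinase 1 in mitosis. It lies on chromosome 9 from 70407689 to 70421554 on the minus strand of mm10. Its level was 0.504, 0.796 and 1.20 CPM (lowest, median and highest) in WT and 1.152, 1.52 and 2.53 CPM in A1cf KO, from 23 to 111 counts per library. In 5 of 6 A1cf KO libraries it was above every WT library, and the sixth, A1cf KO 584, lay just under WT 590. The log2 fold change was 1.09 (SE 0.25, 95% interval 0.55 to 1.63), with an adjusted p of 0.17 by edgeR and 0.0086 by DESeq2. With a term for the number run it was 1.03, and within animals 573 to 602 it was 1.08. Leaving out each library in turn gave 0.94 to 1.25, with adjusted p by edgeR of 0.11 at the lowest. The deposited table also names a copy, Ccnb2-ps, and whether Ccnb2 loses reads to it was not tested.

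The kinase and its other cyclins had estimates below that of Ccnb2. Cdk1, the kinase itself, was at 0.485, 0.827 and 1.36 CPM (lowest, median, highest) in WT and 0.542, 1.5 and 2.53 CPM in A1cf KO (a log2 fold change of 0.74, adjusted p = 0.52 by edgeR). Its 3 highest libraries were A1cf KO 602, 588 and 591, and A1cf KO 574, 584 and 780 lay inside the WT range. Ccnb1, cyclin B1, was at 0.147, 0.516 and 1.28 CPM in WT, against 0.374, 0.835 and 1.46 CPM in A1cf KO (a log2 fold change of 0.64, adjusted p = 0.66 by edgeR). Between 4 and 66 counts per library lay behind it. Ccna2, cyclin A2, was at 0.508, 0.835 and 1.80 CPM in WT, against 0.914, 1.51 and 2.13 CPM in A1cf KO (a log2 fold change of 0.58, adjusted p = 0.55 by edgeR). Part of its exons (12.5%) overlaps Exosc9, and the counting could not assign such reads.

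Genes of the spindle held the other 2 estimates with an unadjusted p under 0.05. Tpx2, which targets and activates Aurora A on spindle microtubules, was at 0.427, 0.583 and 1.32 CPM in WT, against 0.823, 1.13 and 2.14 CPM in A1cf KO (a log2 fold change of 0.76, SE 0.33, adjusted p = 0.45 by edgeR). All 6 A1cf KO libraries lay above the WT mean and 3 above every WT library. Kif11, the kinesin that pushes the spindle poles apart, was at 0.516, 0.846 and 1.37 CPM in WT, against 1.02, 1.44 and 1.75 CPM in A1cf KO (a log2 fold change of 0.61, SE 0.26, adjusted p = 0.43 by edgeR). Again 6 of 6 A1cf KO libraries exceeded the WT mean and 3 exceeded every WT library. With the term for the number run the log2 fold changes were 0.55 for Tpx2 and 0.43 for Kif11, and neither had an unadjusted p under 0.05.

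Top2a, the topoisomerase that untangles sister DNA, was at 0.504, 1.80 and 2.78 CPM in WT, against 1.76, 2.79 and 3.77 CPM in A1cf KO (a log2 fold change of 0.68, adjusted p = 0.51 by edgeR). The lowest library was WT 573, and 3 A1cf KO libraries lay above every WT library. Mki67, the proliferation marker that coats mitotic chromosomes, was at 1.44, 2.65 and 6.56 CPM in WT, against 2.36, 4.04 and 7.26 CPM in A1cf KO (a log2 fold change of 0.47, adjusted p = 0.69 by edgeR). It varied 4.57-fold between WT libraries alone, and its genotypes overlapped over most of the range. The kinetochore genes Cenpf and Cenpe had log2 fold changes of 0.59 and 0.39 (adjusted p by edgeR 0.55 and 0.59).

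Genes of mitotic exit and cytokinesis had estimates between 0.16 and 0.62. Cdc20, an activator of the anaphase-promoting complex, was at 0.810, 1.01 and 2.15 CPM in WT, against 0.960, 1.67 and 2.38 CPM in A1cf KO (a log2 fold change of 0.53, adjusted p = 0.54 by edgeR). WT 590 held its highest WT value, and 2 A1cf KO libraries, 591 and 602, lay above it. Ube2c, the ubiquitin-conjugating enzyme of the same complex, was at 0.318, 0.434 and 1.00 CPM in WT, against 0.494, 0.863 and 1.01 CPM in A1cf KO (a log2 fold change of 0.62, adjusted p = 0.50 by edgeR). Its exons overlap Tnnc2 over 22.8% of their length, so its value is uncertain. Prc1, which bundles microtubules at the midzone, had a log2 fold change of 0.16, and its exons overlap Rccd1 over 11.1% of their length.

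Estimates of the checkpoint, Aurora and Polo kinase genes ran from 0.11 to 0.48. Bub1, a checkpoint kinase, had 2 to 30 counts per library, too few for a firm estimate (log2 fold change 0.48, 95% interval -0.57 to 1.54). Bub1b, its relative BubR1, was at 1.39 ± 0.35 CPM in WT, against 1.51 ± 0.27 CPM in A1cf KO (mean ± SD of 6). The log2 fold changes were 0.31 for Aurka, 0.32 for Aurkb, 0.19 for Plk1 and 0.10 for Birc5, which encodes survivin, and their 95% intervals all include 0. Nusap1, a microtubule-binding protein gene and the most abundant mitotic gene per length, was at 4.45 ± 0.54 and 4.50 ± 0.95 CPM (log2 fold change 0.01, 95% interval -0.30 to 0.32).

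Estimates of the replication genes lay on either side of 0, with 6 of 11 positive and a median log2 fold change of 0.02. None of the 11 had an unadjusted p under 0.05 by edgeR, where 10.4% of all genes did, and DESeq2 called 0. The 95% interval lay within 0.5 log2 units of 0 for 7 of the 11 genes. The difference between the mitotic and the replication median was not tested.

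Pcna, the sliding clamp of DNA polymerase, was at 30.9, 32.1 and 33.4 CPM (lowest, median, highest) in WT and 30.1, 32.9 and 34.4 CPM in A1cf KO. Among WT libraries it had the smallest coefficient of variation of the 34 genes, and its log2 fold change was 0.02 (95% interval -0.09 to 0.12). Among the subunits of the MCM helicase, which unwinds DNA at the fork, estimates ran from -0.06 to 0.32. Mcm3 was at 2.06, 3.51 and 4.44 CPM in WT, against 3.62, 3.90 and 5.88 CPM in A1cf KO (a log2 fold change of 0.32, adjusted p = 0.57 by edgeR), with 6 of 6 A1cf KO libraries above the WT mean. Mcm5 and Mcm4 had log2 fold changes of 0.29 and 0.20. Mcm6 was at 15.1, 18.8 and 25.3 CPM in WT, against 15.6, 17.8 and 28.9 CPM in A1cf KO (a log2 fold change of -0.01), and those of Mcm2 and Mcm7 were -0.06 and -0.03. The exons of Mcm7 hold 2 microRNA genes and overlap Ap4m1 and Cops6, 12.6% of its length in all.

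The enzymes of deoxynucleotide supply lay near 0 as well. Rrm1, the large subunit of ribonucleotide reductase, was at 9.43, 11.1 and 11.9 CPM in WT, against 6.60, 10.5 and 11.6 CPM in A1cf KO (a log2 fold change of -0.13, 95% interval -0.39 to 0.13). A1cf KO 780 held its lowest value. Rrm2, the subunit whose level follows S phase, was at 3.24 ± 0.78 and 3.65 ± 1.23 CPM (SD, n = 6 each, log2 fold change 0.17). Tyms, thymidylate synthase, and Tk1, thymidine kinase, had log2 fold changes of -0.07 and 0.15 (adjusted p by edgeR 0.87 and 0.84).

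The G1 cyclins had estimates of 0.08 for Ccnd1, 0.14 for Ccne1 and 0.02 for Ccne2, with adjusted p of 0.89, 0.92 and 0.98 by edgeR. Ccnd1 was at 66.3, 83.5 and 150.2 CPM in WT, against 82.3, 93.7 and 116.9 CPM in A1cf KO. A single library, WT 776, set the top of the WT range, and without it the log2 fold change was 0.28 (adjusted p = 0.45 by edgeR). With the term for the number run it was 0.24, and within animals 573 to 602 it was 0.28 (adjusted p = 0.64 by edgeR, unadjusted p = 0.038). Ccne1 had a log2 fold change of -0.17 with that term. The exons of Ccnd1 overlap Oraov1 over 21.3% of their length, and those of Ccne2 overlap Ints8 over 17.4%.

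**Figure D2:**
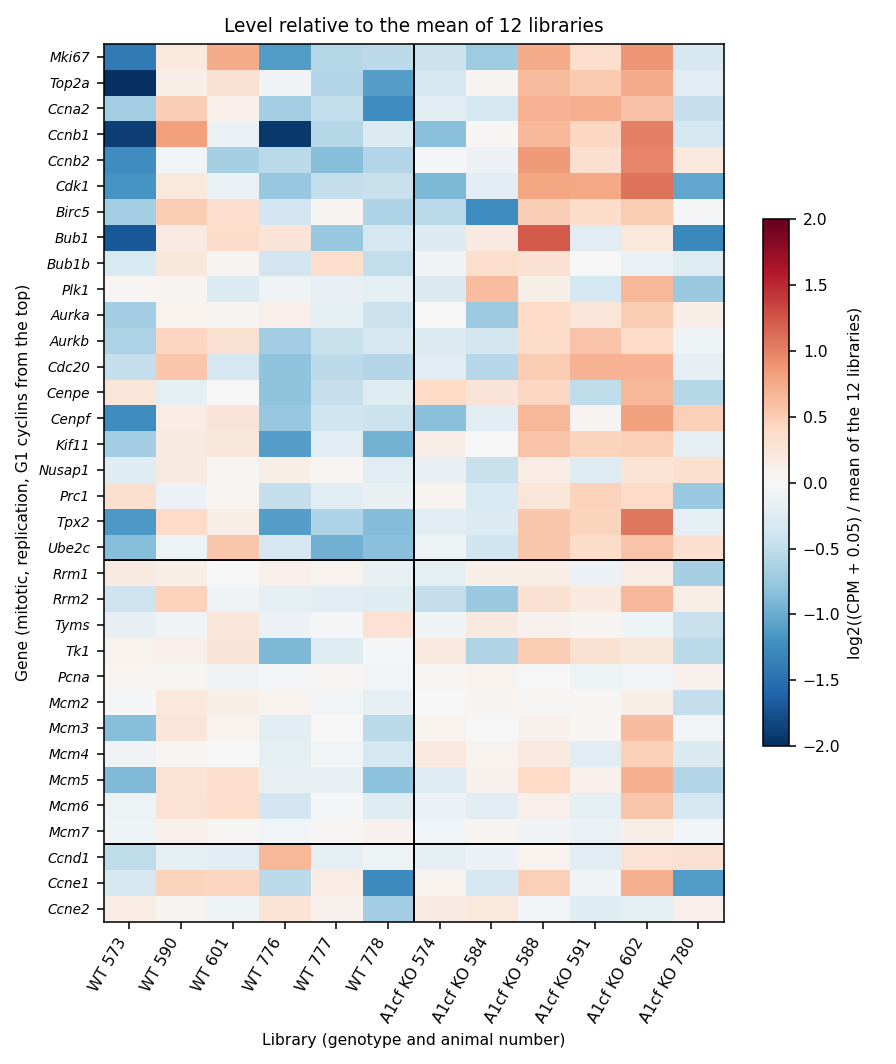
Level of each of the 34 genes (rows) in each of the 12 libraries (columns), as log2 of CPM plus 0.05 over the mean of the 12 libraries; red is above and blue below the mean. Many of the mitotic genes move together from library to library, but not all of them. A1cf KO 602 is the highest library for 11 of 20 mitotic genes and WT 573 the lowest for 7. WT 573 also holds the highest WT level of Cenpe and of Prc1. Pcna and Mcm7 stay near white.

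The same libraries were high, or low, for most of the mitotic genes. A1cf KO 588 was above the median of the 12 libraries for 20 of 20 mitotic genes, A1cf KO 602 for 19, WT 590 for 18, A1cf KO 591 for 16 and WT 601 for 15. WT 778 was above it for 0 of 20. Summed over the 20 genes, WT libraries held 19.51, 35.2, 34.1, 21.9, 24.3 and 21.2 CPM (animals 573, 590, 601, 776, 777 and 778). The A1cf KO libraries held 26.4, 25.6, 43.8, 36.6, 47.7 and 27.4 CPM (animals 574, 584, 588, 591, 602 and 780). So 3 A1cf KO libraries lay above all WT libraries, and the other 3 lay between the WT groups of 2 high and 4 low animals. The sums were 26.0 ± 6.85 CPM in WT, against 34.6 ± 9.60 CPM in A1cf KO (mean ± SD of 6).

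The replication sum covered a narrower range. It was 147 ± 11.1 CPM in WT, against 149 ± 15.4 CPM in A1cf KO (mean ± SD of 6), from 126 CPM in A1cf KO 780 to 171.5 CPM in A1cf KO 602. WT 590 and WT 601, which held the highest WT mitotic sums, also held the highest WT replication sums (160.3 and 159.9 CPM).

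**Figure D3:**
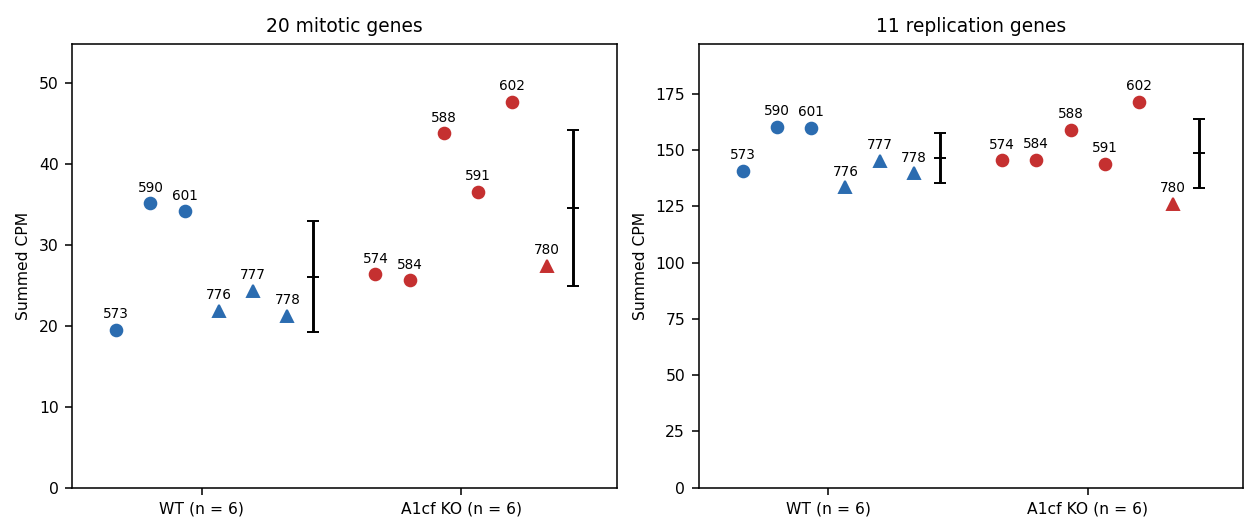
Summed CPM (y axis, from 0) of the 20 mitotic genes (left) and the 11 replication genes (right) in each library, labelled by animal number, for WT (blue) and A1cf KO (red); circles are animals 573 to 602, triangles 776 to 780, black bars the mean and SD of 6. The mitotic sums run from 19.51 to 35.2 CPM in WT, against from 25.6 to 47.7 CPM in A1cf KO, and the replication sums overlap throughout.

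The run of animal numbers moved with the mitotic genes. Within WT, the mean of animals 573 to 601 was above that of 776 to 778 for 20 of 20 mitotic and 9 of 11 replication genes, although WT 573 itself held the lowest mitotic sum. As 5 of 6 A1cf KO but 3 of 6 WT animals came from the first run, the number run and the genotype are partly mixed. With a term for the run, the mitotic median was 0.32, with 19 of 20 positive and 1 unadjusted p under 0.05 (Ccnb2), where 12.9% of all genes had one. Single genes with that term included Mki67 at 0.26, Ccna2 at 0.33, Cdc20 at 0.35 and Cenpe at 0.17, and among replication genes Mcm5 at 0.11 and Rrm1 at -0.24. The replication median with the term was -0.03. Within animals 573 to 602 the mitotic median was 0.31, with 18 of 20 positive, and the replication median was 0.03. In the other run, A1cf KO 780 was above the mean of the 3 WT animals for 14 of 20 mitotic and 3 of 11 replication genes.

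Single libraries moved the mitotic median and the count of mitotic genes at an unadjusted p under 0.05 by edgeR. Leaving out each library in turn, the mitotic median ran from 0.40 (without A1cf KO 588) to 0.67 (without WT 601). The count at an unadjusted p under 0.05 by edgeR was 3 with all libraries. It was 8 without WT 590, 7 without WT 601, 6 without A1cf KO 574 and 6 without A1cf KO 584. It was 5 without A1cf KO 780, 2 without WT 777 or A1cf KO 591, and 1 without any of WT 573, WT 776, WT 778, A1cf KO 588 or A1cf KO 602. With all libraries, 10.4% of all genes were at that mark by edgeR. The share of all genes was not tallied for the fits with a library left out. Whether the mitotic counts moved more than that share is therefore not known. At an adjusted p under 0.05 the count over the 34 genes was 0 in each of these fits.

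The spread between libraries was wider than counting error for most of these genes, where counting error is that of independent reads. In WT, the coefficient of variation of the mitotic genes had a median of 39.3%, where counting gives 14.6% if each counted read is independent. It exceeded the counting error so computed for 19 of 20, Plk1 being the exception. Every count of Bub1 and of Aurkb was even, as when both reads of a pair are counted, and counting error would then be larger. The size of that increase was not computed, so narrow margins such as that of Pcna are uncertain. For the replication genes the medians were 13.5% and 4.31%. Among them Mcm5 (34.7%, counting error 7.34%) had the widest spread and Pcna (3.62%, counting error 2.62%) the narrowest.

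**Figure D4:**
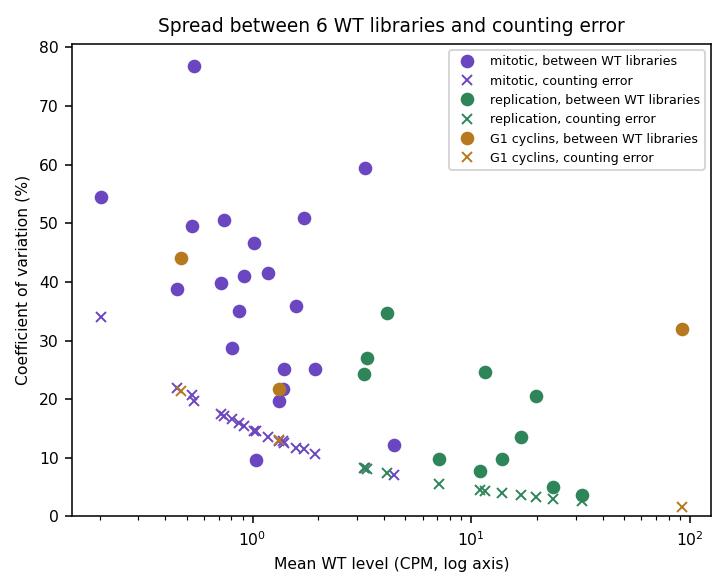
Coefficient of variation between the 6 WT libraries (circles) and that of counting error (crosses), in percent (y axis), against the mean WT level in CPM (x axis, log) for mitotic, replication and G1 cyclin genes. Counting error takes each counted read as independent and would be larger where both reads of a pair are counted. The circle lies above its cross for all genes but Plk1, and Ccnb1 has the widest spread (76.8%).

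Other genes of the pathway were read from lists taken from general knowledge. Of 40 further mitotic genes, 37 were tested, 28 had a positive fold change and the median log2 fold change was 0.23. None passed over all genes by edgeR or DESeq2, and 3 had an unadjusted p under 0.05 by edgeR, 2 higher and 1 lower. Of all genes, 10.4% were at that mark. Kif18b, Melk and Fam64a, named for this limit, reached the level of the expression filter in 2 WT and 4 A1cf KO libraries each. They count among the positive genes, though they were tested mostly through the group where they were higher. Ect2, which activates RhoA for cytokinesis, was at 2.23 ± 0.40 and 3.20 ± 0.55 CPM (log2 fold change 0.51, adjusted p = 0.31 by edgeR). Spc25, a subunit of the NDC80 kinetochore complex, was at 34.6 ± 7.30 and 26.3 ± 1.77 CPM (log2 fold change -0.39, adjusted p = 0.28 by edgeR). Of 42 further replication genes, 41 were tested and 21 were positive, with a median of 0.01 and none past the threshold. Exo1, a repair and replication exonuclease, was at 0.11 ± 0.087 and 0.27 ± 0.14 CPM from 2 to 18 counts (log2 fold change 1.27, adjusted p = 0.40 by edgeR). It reached the level of the expression filter in 1 WT and 5 A1cf KO libraries, so it was tested mostly through the group where it was higher. Gins3, a subunit of the GINS complex, was at 1.82 ± 0.32 and 1.48 ± 0.12 CPM (SD, n = 6 each for all). With the term for the number run, the medians were 0.15 for the further mitotic genes and -0.06 for the further replication genes.

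Regulators upstream of these genes did not pass the threshold either. Of 20 transcription regulators (E2F and DP factors, pocket proteins, LIN and B-MYB subunits, FOXM1 and MYC), 18 were tested, 13 were positive and the median log2 fold change was 0.09. Foxm1, which drives mitotic genes, was at 1.33 ± 0.42 and 1.52 ± 0.45 CPM, and Mybl2, the B-MYB subunit of MMB, at 2.87 ± 0.46 and 2.59 ± 0.52 CPM; both are named after their values were seen. Myc was at 8.97 ± 2.05 and 13.2 ± 5.84 CPM (log2 fold change 0.56, adjusted p = 0.47 by edgeR), and Tfdp1, the E2F partner, at 18.03 ± 1.74 and 19.99 ± 1.26 CPM. With the term for the number run the median of the regulators was 0.06, and Myc had a log2 fold change of 0.74 (adjusted p = 0.22 by edgeR). Among 8 further G1 cyclin and kinase genes the median was -0.02, with Cdc25a, a phosphatase that activates CDK2, at 12.3 ± 1.12 and 10.6 ± 1.46 CPM and Ccnd3 at 76.3 ± 4.36 and 69.6 ± 6.63 CPM.

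Inhibitors of the cycle had a median log2 fold change of 0.07 over 14 tested of 15 listed genes, 9 of them positive. At an unadjusted p under 0.05 by edgeR there were 2, both higher and neither past the adjusted threshold, where 5.07% of all genes were at that mark and higher. Ccng1, a p53 target, was at 156 ± 24.3 and 188 ± 16.3 CPM (log2 fold change 0.26, adjusted p = 0.37), and Cdkn2c, the p18 inhibitor of CDK4 and CDK6, at 8.75 ± 1.21 and 10.4 ± 1.23 CPM (log2 fold change 0.25, adjusted p = 0.43). Cdkn1a, which encodes p21 and is named after its value was seen, ran from 6.98 to 42.3 CPM in WT, against from 14.5 to 51.9 CPM in A1cf KO, with a log2 fold change of 0.09. Its WT mean was 11.2 CPM in animals 573 to 601 and 31.4 CPM in animals 776 to 778. With the term for the number run its log2 fold change was 0.63 (adjusted p = 0.19 by edgeR, unadjusted p = 0.0043), and within animals 573 to 602 it was 0.59 (adjusted p = 0.61 by edgeR, unadjusted p = 0.022). The median of the inhibitors was 0.10 with the term and 0.13 within animals 573 to 602, where Ccng1 was at 0.11.

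Markers of other cells that divide in kidney were set beside these values. Of 12 macrophage markers 11 were positive (median 0.30), 4 of them at an unadjusted p under 0.05 in the edgeR test, and 2 were called by DESeq2. Of all genes, 5.07% were at that mark in the edgeR test and higher in A1cf KO. DESeq2 called 1.11% of the genes with a value. Their sum was 134 to 192 CPM in WT, against 157 to 209 CPM in A1cf KO. A1cf KO 602 and WT 590 were the highest of their groups in this sum and in the mitotic sum. A1cf KO 588, second of all in the mitotic sum, was the lowest A1cf KO library in the macrophage sum (157 CPM), and WT 601 (159 CPM) lay below WT 776 (174.5 CPM). Of 8 fibroblast and pericyte markers 7 were positive (median 0.30) and 4 had an unadjusted p under 0.05 in the edgeR test, all higher, with sums of 197 to 309 and 220 to 394 CPM. T and NK cell markers summed to 4.79 to 8.85 CPM in WT, against 5.60 to 10.5 CPM in A1cf KO (6 of 9 positive, median 0.20). B and plasma cell markers (median 0.09, 4 of 6 positive) summed to 27.3 to 87.7 and 43 to 109 CPM. Neutrophil and progenitor markers (3 of 8 tested, 2 of them positive, median 0.60) summed to 14.99 to 29.4 and 14.4 to 19.9 CPM. The mean neutrophil and progenitor sum was 20.9 CPM in WT, against 17.6 CPM in A1cf KO.

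Endothelial markers had a median of 0.05 (5 of 8 positive) with sums of 190 to 387 and 235 to 372 CPM. Erythroid markers had a median of -0.22 (1 of 8 tested positive) with sums of 256 to 436 and 167 to 463 CPM. At an unadjusted p under 0.05 by edgeR there was 1 erythroid marker, lower in A1cf KO, where 5.28% of all genes were. Markers of injured tubules, which re-enter the cycle during repair, had a median of -0.01 (3 of 8 positive) with sums of 876 to 1288 and 886 to 1209 CPM. Proximal tubule markers had a median of 0.10 (7 of 10 positive) with sums of 39290 to 54830 and 41240 to 58230 CPM. The run of numbers moved some of these medians. With its term, the endothelial median was 0.28 (8 of 8 positive, 5 at an unadjusted p under 0.05 by edgeR) and that of B and plasma cell markers 0.48 (3 at that mark). Of all genes, 12.9% were at that mark with the term. Within animals 573 to 602 the medians were 0.34 for endothelial, 0.48 for B and plasma cell, -0.03 for erythroid and -0.02 for proximal tubule markers. Those of macrophage and of fibroblast and pericyte markers were 0.27 and 0.34 with the term, and both were 0.32 within those animals. No listed marker in the table was at 0 in all libraries. The part of macrophages, fibroblasts or any other cell type in the mitotic values was not tested.

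**Figure D5:**
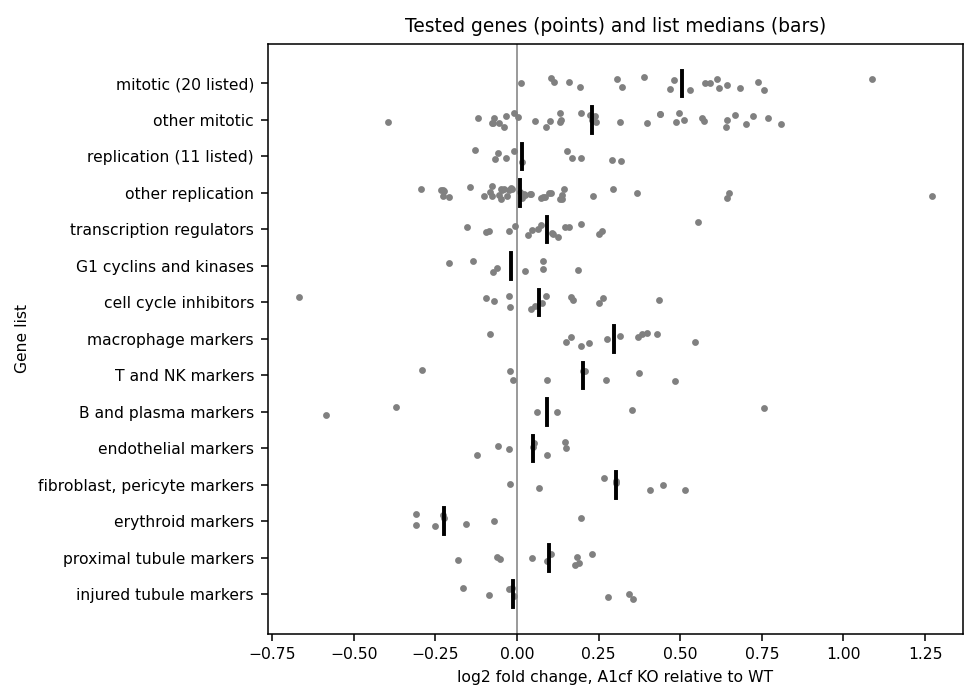
Change with genotype (x axis, log2 of A1cf KO over WT) of each tested gene (grey points) in 15 lists of cell cycle and cell type marker genes (y axis), black bars being list medians; the G1 cyclin genes Ccnd1, Ccne1 and Ccne2, and the neutrophil and progenitor markers (3 genes tested) are not drawn. The median of the 20 mitotic genes lies at 0.51, macrophage markers lie at 0.30, and the replication genes lie at 0.02.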

How the data were processed

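RNA from whole mouse kidney was sequenced in 12 libraries after preparation with an Illumina TruSeq kit, per the labels' protocols. The authors deposited raw counts per gene name. Per the file headers these come from featureCounts 1.5.0-p2 over exons of GENCODE M8, on trimmed, merged and duplicate-marked alignments, with no strand, pair or duplicate option set. The build was mm10, and STAR and DESeq2 were used, per the submitters' processing notes. The deposited table also gives the exon length of each gene (other unit: bases). With that command, reads shared by overlapping genes go to neither. Members with copies by name in the table (Ccnb2-ps, Pcna-ps1, Pcna-ps2) may lose reads, but the sequences of these copies were not compared. 0 rows named no gene.

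The analysis used edgeR 4.0.16 in R 4.3.3: filterByExpr by genotype (16910 genes), TMM, the quasi-likelihood F test for genotype, and Benjamini-Hochberg adjustment over every gene tested (threshold 0.05). The filter asks for 6 libraries above a fixed level. It was met by all 12 libraries for 18 of 20 mitotic and 11 of 11 replication genes, and no member passed through A1cf KO libraries alone. Alternatives were DESeq2 1.42.0, limma-voom (limma 3.58.1), other scalings and filters, a term for the number run, animals 573 to 602 only, and each library left out. The fits were tested on simulated counts, with changes placed in genes drawn from all those tested. Recovery of small changes in scarce genes such as the mitotic ones was not assessed apart. The labels do not say that libraries come from separate animals, so p-values measure the spread between these libraries. Totals ran from 26671705 to 52899139 counts. The members and lists were chosen with earlier results of these data known. All 34 members are named. Of each other pathway list, genes past the threshold are named, or otherwise the 2 with the smallest p.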

Additional observations from a re-analysis of the deposited data

Results flagged for a closer look

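Of 72 groups of 6 libraries checked for a library far from the others, 5 were flagged, and chance flags about 1 in 20. Cdc20 in WT 590 was at 2.15 CPM, with the other WT libraries between 0.810 and 1.14 CPM, and Rrm2 in the same library was at 4.77 CPM against 2.56 to 3.26 CPM. Mcm3 in A1cf KO 602 was at 5.88 CPM, with the other A1cf KO libraries between 3.62 and 4.004 CPM. Mcm2 in A1cf KO 780 was at 9.72 CPM, below 13.5 to 14.9 CPM in the others. Ccnd1 in WT 776 was at 150.2 CPM, above 66.3 to 88.0 CPM in the others.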

How the results depend on the processing

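Over 8 fits with another scaling, filter, test or set of animals, the mitotic median kept its sign (0.31 to 0.52), while the replication median ran from -0.03 with the term for the number run to 0.03 within animals 573 to 602. When each library was left out in turn, 6 to 12 genes of all tested passed, with 0 of the 34, and the medians ran from 0.40 to 0.67 (mitotic) and from 0.006 to 0.07 (replication). DESeq2 called 170 genes and 1 of the 34 (Ccnb2, log2 fold change 1.09), and the term for the number run gave 24 genes and 0 of the 34, against 8 and 0; the cause was not tested. Estimates near 0 changed sign: Nusap1 (-0.015 by limma-voom, -0.065 within animals 573 to 602), Prc1 (-0.040), Tk1 (-0.034) and Ccne1 (-0.168) with the number run term, and Birc5 (-0.081), Tyms (0.029), Pcna (-0.009), Ccne1 (-0.013) and Ccne2 (-0.053) within animals 573 to 602. Leaving out 1 library gave -0.007 to 0.269 for Birc5, -0.055 to 0.090 for Nusap1, -0.114 to 0.003 for Tyms, -0.098 to 0.016 for Mcm2, -0.149 to 0.073 for Mcm6, -0.031 to 0.291 for Ccne1 and -0.093 to 0.079 for Ccne2. No paired analysis was run because the labels name no littermates or other pairs. Bub1, Ccnb1 and Exo1 had low counts and wide intervals of the log2 fold change. These ran from -0.57 to 1.54 for Bub1 and from -0.35 to 1.63 for Ccnb1, both including 0. That of Exo1 ran from 0.21 to 2.33 and excluded 0, though its adjusted p by edgeR was 0.40. The smallest difference detectable in these genes was not computed.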
